A study of Mus musculus with 22 samples.

Results

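The genes of the crypt base and the targets of Wnt signaling described here are Ascl2, Axin2, Lgr5, Ephb2, Ephb3, Tnfrsf19, Sox9, Smoc2, Rnf43 and Nkd1, 10 genes chosen by name. All probe sets annotated to 1 of these symbols alone were taken, and the one whose values had the widest interquartile range over the 22 arrays gave the main value of a gene. Ephb2 had no such probe set and was not analysed here, which left 9 of the 10 genes, with 21 probe sets, out of 18194 genes with a main value. The 22 samples were colonic mucosa per the labels, with RNA from homogenized colonic tissue per the study's methods, 1 array per sample. All mice carried PPAR γ fl/fl alleles. The methods describe mice of a mixed FVB/C57BL/6 background and a line backcrossed to C57BL/6, and the labels and the microarray methods do not state which of them gave the arrays. VC- mice lacked Cre (Villin Cre-) and expressed PPAR γ in the epithelium, whereas VC+ mice carried Villin Cre+, in which the Villin promoter drives Cre in intestinal epithelial cells, so that the deletion is of epithelial cells and leaves other cell types of the tissue with the gene. Samples were taken at day 0 (no DSS), day 2 and day 7 of 2.5% dextran sodium sulfate (DSS) in the drinking water, a chemical that damages the epithelial barrier and causes colitis. The groups held 3, 3 and 4 arrays of VC- mice and 3, 5 and 4 arrays of VC+ mice at days 0, 2 and 7. The labels state neither ages nor whether the arrays came from separate mice, and p-values therefore measure the spread between these samples.

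The colonic epithelium renews itself from stem cells at the base of the crypts. Wnt ligands bind Frizzled and LRP receptors there, β-catenin then escapes destruction and enters the nucleus, and together with TCF factors it switches on target genes. R-spondins amplify the signal by binding LGR receptors and removing the ubiquitin ligases RNF43 and ZNRF3, which otherwise clear Frizzled from the cell surface. Several targets, Axin2, Rnf43 and Nkd1 among them, are themselves brakes on the pathway. Lgr5, Ascl2, Smoc2 and Tnfrsf19 mark the stem cells or their near neighbours, Ephb2 and Ephb3 keep cells in their position along the crypt axis, and Sox9 is a transcription factor of the lower crypt.

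The values are log2 signals processed by GC-RMA, which ran from 0.58 to 16.76, with array medians between 3.41 and 3.55. A value under its own array's median is called near background here. A fold change against a group in which all arrays were near background is given as a lower bound, with each dim array set at its median. Epithelial markers were bright on all arrays, with Muc2 between 12.83 and 15.83 and Vil1 between 8.46 and 12.85. Pparg, whose probe set may lie outside the deleted part and which other cells also express, averaged 9.61, 10.36 and 8.54 at days 0, 2 and 7 in VC- mice and 8.65, 7.71 and 8.81 in VC+ mice. It went against the genotype on VC+ day 7 replicates 1 and 2, at 10.35 and 10.08, where it lay above every VC- day 0 and day 7 array (highest 9.82), and it was at 9.54 on VC+ day 2 replicate 2. Several arrays stood apart. The pancreatic gene Prss2 was at 13.77 on VC- day 0 replicate 3, 14.74 on VC- day 7 replicate 2 and 11.20 on VC+ day 7 replicate 4, against 3.27 to 4.20 elsewhere. VC- day 7 replicate 2 also had a mean of pan-epithelial markers, relative to their means over all arrays, of -3.28, where those of the other arrays lay between -0.13 and 0.46. Hoxb13, a gene of the distal colon, and Xist, which is expressed from the inactive X chromosome, split the arrays unevenly over the groups, and their values are given beside the results they move with.

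At day 2 of DSS, Ascl2, Axin2 and Ephb3 had fallen in VC+ mice, Ascl2 at least 5.64-fold and the others by 1.86 and 1.38 on the log2 scale, and no gene of the 9 passed the test in VC- mice. At day 7, those 3 genes and Tnfrsf19 had fallen in both genotypes, with fitted falls of 1.02 to 2.85 on the log2 scale. Ascl2 and Ephb3 were near background on all VC- day 7 arrays, and there they were at least 3.98-fold and 1.74-fold lower than at day 0. Lgr5 and Rnf43 had lower means in VC+ mice at day 2 and in both genotypes at day 7, without passing the test. Sox9 and Smoc2 varied widely at day 7, and Nkd1 had a higher mean at day 7 in VC- mice with an adjusted p of 0.0525. None of the 9 genes differed between VC- and VC+ mice at any day by the test, and for none did the responses of the genotypes differ by the test. The tissue was measured in bulk, so fewer crypt base cells and less RNA per cell cannot be told apart.

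**Figure D1:**
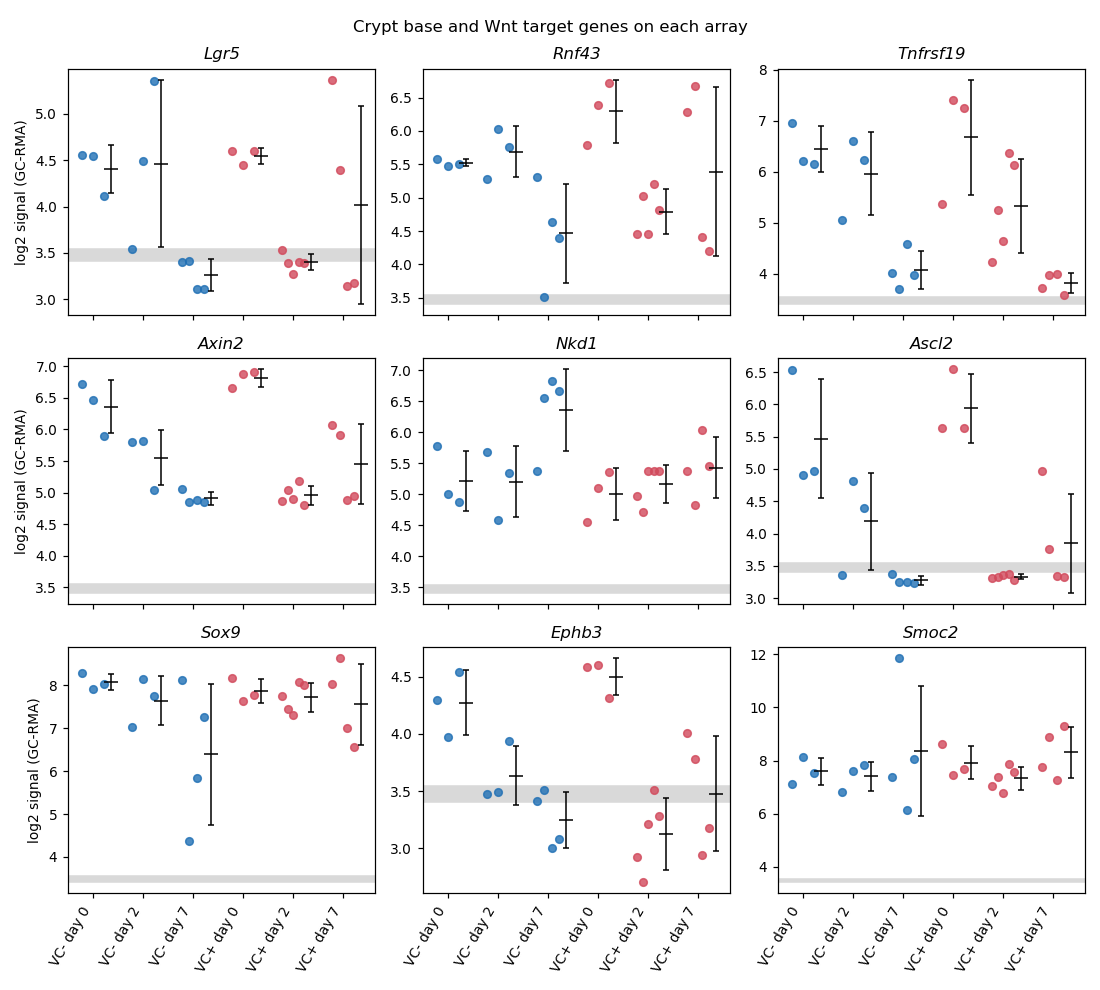
Log2 GC-RMA signal of the 9 measured genes on each array, by group (VC- in blue, VC+ in red, 1 point per array, vertical axes differ between genes and do not start at 0). Short horizontal lines are group means, bars are 1 SD, and the grey band spans the array medians of 3.41 to 3.55. The 5 VC+ day 2 arrays of Axin2 lie between 4.81 and 5.18, below all 3 VC+ day 0 arrays.

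The counts were read against all 9097 genes tested, each by limma on 6 group means with Benjamini-Hochberg adjustment within a comparison and a threshold of 0.05. In VC- mice at day 2, 0 of the 9 genes were called, against 0.011% of all genes tested (1 gene, and 417 at an unadjusted p under 0.05). In VC+ mice at day 2, 3 of the 9 were called, all lower, against 0.055% of all genes (5 genes). At day 7, 4 of the 9 were called in VC- mice, all lower, against 10.6% of all genes (5.06% lower and 5.53% higher). In VC+ mice at day 7, 4 of the 9 were called, all lower, against 1.75% of all genes (0.429% lower and 1.32% higher). Counted without a test, all arrays lay below all day 0 arrays for 3 of the 9 genes at day 2 and 6 at day 7 in VC- mice, against 6.61% and 12.3% of all genes. In VC+ mice this held for 5 genes at day 2 and 4 at day 7, against 6.27% and 8.61%. The median log2 fold change of the 9 genes was -0.43 at day 2 and -1.15 at day 7 in VC- mice and -1.34 and -0.90 in VC+ mice, where the medians over all genes tested were between -0.092 and -0.016. All 9 genes passed the filter on variance. Without that filter, 3, 4 and 3 of them were called at day 2 in VC+ mice, day 7 in VC- mice and day 7 in VC+ mice. In fits restricted to the groups under comparison, 4 were called at day 2 in VC+ mice and 0 at day 7 in either genotype. The shares of all genes called without the filter and in the restricted fits are not given here.

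**Figure D2:**
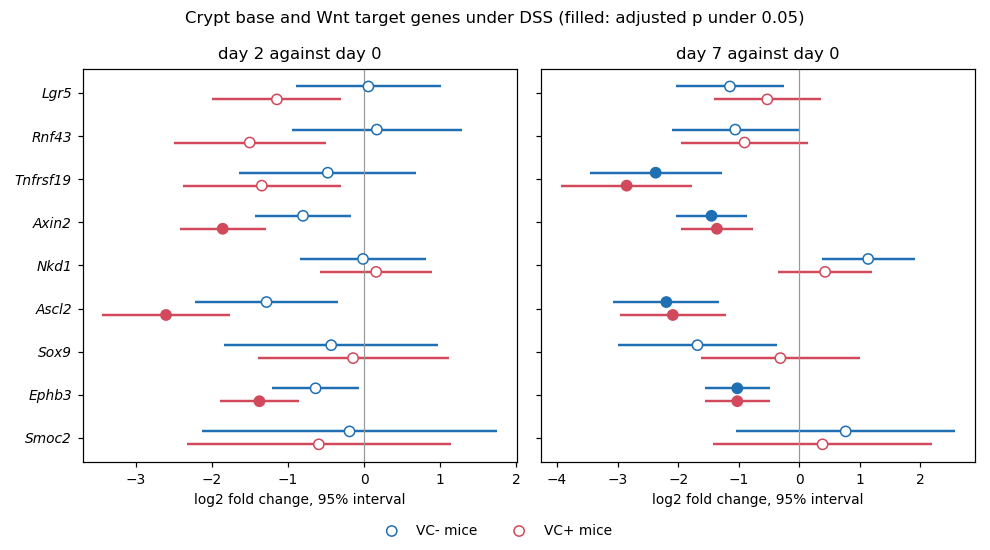
Log2 fold change of the 9 genes against day 0 of the same genotype, at day 2 (left) and day 7 (right), with 95% intervals from limma (VC- in blue, VC+ in red, filled where the adjusted p was under 0.05). At day 2 the filled points are Ascl2, Axin2 and Ephb3 in VC+ mice, and at day 7 they are these 3 and Tnfrsf19 in both genotypes.

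The promoters of Ascl2, Axin2, Ephb3 and Tnfrsf19 are shown because these 4 genes were called lower at day 7 in both genotypes. The windows are the 250 bases before the RefSeq start in GRCm38.p6, on the strand of the gene, at chr7:142969265-142969514 (minus strand) for Ascl2, chr11:108920099-108920348 (plus strand) for Axin2, chr16:21204545-21204794 (plus strand) for Ephb3 and chr14:61037988-61038237 (minus strand) for the downstream one of the 2 starts of Tnfrsf19. Capitals mark a match to CTTTGA, the core letters bound by TCF factors, on either strand.
Ascl2: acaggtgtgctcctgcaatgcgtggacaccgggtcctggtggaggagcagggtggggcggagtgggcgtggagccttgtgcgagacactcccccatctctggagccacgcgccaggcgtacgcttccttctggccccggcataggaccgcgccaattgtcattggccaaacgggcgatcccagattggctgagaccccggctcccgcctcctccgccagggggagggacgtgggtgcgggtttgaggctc
Axin2: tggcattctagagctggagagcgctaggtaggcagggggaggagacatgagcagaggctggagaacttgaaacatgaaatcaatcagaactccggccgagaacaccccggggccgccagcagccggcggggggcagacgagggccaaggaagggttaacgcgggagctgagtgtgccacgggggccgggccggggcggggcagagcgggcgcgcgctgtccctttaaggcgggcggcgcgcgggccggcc
Ephb3: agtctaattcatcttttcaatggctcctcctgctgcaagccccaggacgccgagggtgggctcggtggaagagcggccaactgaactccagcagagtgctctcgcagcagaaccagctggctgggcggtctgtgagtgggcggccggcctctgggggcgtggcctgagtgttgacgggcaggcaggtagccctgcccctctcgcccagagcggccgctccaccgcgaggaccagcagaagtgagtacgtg
Tnfrsf19: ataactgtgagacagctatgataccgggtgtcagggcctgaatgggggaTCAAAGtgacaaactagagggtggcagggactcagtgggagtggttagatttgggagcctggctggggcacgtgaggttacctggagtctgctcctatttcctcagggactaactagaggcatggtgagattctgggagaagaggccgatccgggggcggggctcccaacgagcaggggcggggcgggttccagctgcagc
The 10 genes had 9 windows in the RefSeq table, for 7 genes, with none for Lgr5, Sox9 and Smoc2. Of these 9 windows, 1 held CTTTGA, that of the downstream start of Tnfrsf19, where the match on the minus strand of the window lay 201 bases before the start. The window of the other Tnfrsf19 start, which is not printed, held no match. Among all 32851 windows of mouse genes, 4544 held the motif, or 13.8%. A match is a description of letters, and its absence says only that these letters are not in this window.

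Axin2 encodes a scaffold of the β-catenin destruction complex and is a feedback target of Wnt signaling in most tissues. In VC+ mice its log2 signal was 6.65, 6.88 and 6.92 at day 0. At day 2 it was 4.87, 5.04, 4.90, 5.18 and 4.81, and at day 7 it was 6.07, 5.92, 4.88 and 4.95. All arrays of both later days lay below those of day 0. At day 7 replicates 1 and 2, where Pparg was high, lay closer to day 0 than replicates 3 and 4. On VC+ day 2 replicate 2, where Pparg was at 9.54, Axin2 was at 5.04. The part of Pparg was not tested. Axin2 fell by 1.86 ± 0.27 (SE) at day 2, or 3.62-fold (adjusted p = 0.0132), and by 1.36 ± 0.28 at day 7 (adjusted p = 0.0164). In VC- mice Axin2 was 6.71, 6.47 and 5.89 at day 0, 5.81, 5.81 and 5.05 at day 2 and 5.06, 4.85, 4.88 and 4.85 at day 7. The 4 day 7 arrays lay close together and below all day 0 arrays. The gene fell by 1.45 ± 0.28 at day 7 (adjusted p = 0.00610). Its day 2 arrays also lay below day 0, with a gap of 0.082, and the difference of -0.80 ± 0.30 did not pass the test (adjusted p = 1.00). The day 7 call in VC- mice held without each of the 22 arrays in turn. The day 2 call in VC+ mice was lost without VC+ day 0 replicate 2 (adjusted p = 0.177) and when VC+ day 2 replicate 5 was left out (0.0511). The day 7 call in VC+ mice was lost without VC+ day 0 replicate 2 (0.0778), VC+ day 0 replicate 3 (0.0873) and VC+ day 7 replicate 4 (0.0692). The other probe set of Axin2 was near background on all arrays. Its day 7 differences of means were -0.033 in VC- and -0.11 in VC+ mice.

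Ascl2 encodes a basic helix-loop-helix factor that maintains the intestinal stem cells. In VC+ mice it was at 5.63, 6.55 and 5.63 at day 0 and at 3.32, 3.33, 3.36, 3.38 and 3.29 at day 2, so that all 5 day 2 arrays were near background. The fitted difference was -2.60 ± 0.40 (adjusted p = 0.0146), and with the dim arrays set at their medians Ascl2 was at least 5.64-fold lower. At day 7 it was at 4.96, 3.76, 3.35 and 3.33, with 2 of 4 arrays near background, and had fallen by 2.09 ± 0.42 (adjusted p = 0.0136). In VC- mice Ascl2 was at 6.53, 4.91 and 4.97 at day 0, 3.36, 4.82 and 4.39 at day 2 and 3.37, 3.25, 3.25 and 3.23 at day 7. All 4 day 7 arrays were near background, and the gene was at least 3.98-fold lower than at day 0 (log2 difference -2.19 ± 0.42, adjusted p = 0.00550). The day 2 arrays of VC- mice also lay below those of day 0, with a gap of 0.094, and the difference of -1.28 did not pass the test (adjusted p = 0.923). The day 2 call in VC+ mice was lost without VC+ day 0 replicate 2 (adjusted p = 0.324) and VC+ day 2 replicate 5 (0.0511), and the day 7 call in VC+ mice without VC+ day 0 replicate 2 (0.0959) and VC+ day 7 replicate 4 (0.0598). The day 7 call in VC- mice held without each of the 22 arrays in turn. The other 2 probe sets of Ascl2 lay near background on nearly all arrays, and on VC+ day 0 replicate 1 one of them reached 3.67.

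Ephb3 encodes a receptor tyrosine kinase that responds to ephrin B ligands and is found on cells of the lower crypt. In VC+ mice it was at 4.59, 4.60 and 4.32 at day 0, 2.92, 2.70, 3.21, 3.51 and 3.29 at day 2 and 4.01, 3.78, 2.94 and 3.18 at day 7. All day 2 and day 7 arrays lay below day 0, and 4 of 5 and 2 of 4 of them were near background. Ephb3 fell by 1.38 ± 0.25 at day 2 (adjusted p = 0.0411) and by 1.02 ± 0.26 at day 7 (adjusted p = 0.0483). In VC- mice it was at 4.30, 3.98 and 4.54 at day 0, 3.48, 3.49 and 3.93 at day 2 and 3.41, 3.51, 3.00 and 3.08 at day 7. The day 7 arrays were all near background, and the gene was at least 1.74-fold lower than at day 0 (log2 difference -1.02 ± 0.26, adjusted p = 0.0239). These calls lay close to the threshold. In VC+ mice the day 2 call held in 4 of 22 fits that left out an array, those without VC+ day 7 replicate 1, VC+ day 7 replicate 3, VC- day 2 replicate 3 or VC- day 7 replicate 2, and the adjusted p rose to 0.444 without VC+ day 0 replicate 2. The day 7 call in VC+ mice likewise held in 4 of 22 such fits, those without VC+ day 2 replicate 2, VC+ day 7 replicate 1, VC- day 7 replicate 1 or VC- day 7 replicate 2, and rose to 0.191 without VC+ day 0 replicate 2. The call in VC- mice was lost without VC- day 0 replicate 1 (0.0533), VC- day 0 replicate 3 (0.118), VC- day 7 replicate 3 (0.0548) and VC- day 7 replicate 4 (0.0512).

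Tnfrsf19, also called Troy, encodes a receptor of the tumour necrosis factor family that marks intestinal stem cells. It was at 6.96, 6.21 and 6.15 at day 0 in VC- mice, 5.05, 6.60 and 6.24 at day 2 and 4.01, 3.70, 4.59 and 3.97 at day 7. In VC+ mice it was at 5.37, 7.40 and 7.24 at day 0, 4.23, 5.25, 4.65, 6.37 and 6.14 at day 2 and 3.72, 3.98, 3.99 and 3.59 at day 7. In both genotypes all day 7 arrays lay below all arrays of day 0 and of day 2, and those of day 2 overlapped those of day 0. Tnfrsf19 fell by 2.37 ± 0.52, or 5.17-fold, until day 7 in VC- mice (adjusted p = 0.0123). In VC+ mice the gene fell by 2.85 ± 0.52, or 7.21-fold (adjusted p = 0.00721). At day 2 the differences were -0.48 and -1.34 (adjusted p = 1.00 and 0.595). Between day 2 and day 7 the VC- level fell by 1.89 ± 0.52 (adjusted p = 0.0425) and the VC+ level by 1.51 ± 0.46 (adjusted p = 0.0496). In each genotype it was the 1 gene of the 9 called between these days, against 5.61% of all genes in VC- mice (3.45% higher and 2.15% lower) and 7.58% in VC+ mice (4.76% higher and 2.83% lower). Both calls between day 2 and day 7 lay at the threshold, and held in 12 and 5 of the 22 fits that left out an array, respectively. Their highest adjusted p was 0.168 for the VC- call, once VC- day 2 replicate 3 was removed, and 0.138 for the VC+ call, once VC+ day 7 replicate 4 was removed. Tnfrsf19 moved with Xist at day 2, and the part of Xist in these falls was not tested beyond the values given here. On the VC+ day 2 arrays it was at 6.14 to 6.37 where Xist was high and 4.23 to 5.25 where it was not, and on the VC- day 2 arrays at 6.24 to 6.60 and 5.05. On arrays without Xist signal only, the differences between day 2 and day 7 were -0.98 in VC- mice (adjusted p = 0.802) and -0.89 in VC+ mice (adjusted p = 0.383). The difference between day 0 and day 7 in VC+ mice was -2.56 on those arrays (adjusted p = 0.0874). The day 7 call against day 0 held without each array in VC- mice, and in VC+ mice it was lost without VC+ day 0 replicate 2 (0.0569) and VC+ day 0 replicate 3 (0.0627). The other probe sets of Tnfrsf19 lay near background on nearly all arrays. Their differences of means between day 0 and day 7 were -0.020 and -0.049 in VC- mice and -0.15 and -0.10 in VC+ mice.

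Lgr5 encodes a receptor for R-spondins and is the best known marker of the crypt base stem cell. In VC+ mice it was at 4.60, 4.45 and 4.60 at day 0 and at 3.53, 3.39, 3.27, 3.41 and 3.40 at day 2, with no overlap and with 4 of 5 day 2 arrays near background. The difference of -1.15 ± 0.40 did not pass the test over all genes (adjusted p = 0.583), and passed it in a fit restricted to those groups (adjusted p = 0.00839) and with array weights (0.0113). Those were the 2 calls among 11 other settings, and 0 of 22 fits without 1 array called it. At day 7 the 4 arrays were at 5.36, 4.40, 3.14 and 3.18, with replicates 3 and 4 near background and replicate 1 above every day 0 array. Replicates 1 and 2, with the higher Lgr5, were again those with high Pparg, whose part was not tested. On VC+ day 2 replicate 2, where Pparg was at 9.54, Lgr5 was at 3.39 and near background. In VC- mice Lgr5 was at 4.56, 4.55 and 4.11 at day 0, 3.55, 4.49 and 5.35 at day 2 and 3.40, 3.41, 3.11 and 3.11 at day 7. The 4 day 7 arrays were near background and below all others, at least 1.90-fold under day 0 (log2 difference -1.15 ± 0.42), with an adjusted p of 0.0799. Without VC+ day 7 replicate 1, an array outside this comparison, the adjusted p of this difference was 0.0421. That was the 1 call among 22 fits without 1 array, and 1 of 11 other settings called it. The other probe set of Lgr5 was near background on all arrays. Its day 7 differences of means were -0.076 in VC- and 0.0055 in VC+ mice.

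Rnf43 encodes a ubiquitin ligase that removes Frizzled receptors and is itself a Wnt target. In VC+ mice it was at 5.78, 6.39 and 6.71 at day 0, 4.46, 5.02, 4.46, 5.20 and 4.82 at day 2 and 6.28, 6.67, 4.41 and 4.21 at day 7. The day 2 arrays lay below day 0, and the day 7 arrays fell into replicates 1 and 2, at the level of day 0, and replicates 3 and 4, below every day 2 array. The day 2 difference was -1.50 ± 0.48 (adjusted p = 0.499), and -1.67 with array weights (adjusted p = 0.00144). That was the 1 call among 11 other settings, and 0 of 22 fits without 1 array called it. In VC- mice Rnf43 was at 5.58, 5.48 and 5.51 at day 0, 5.28, 6.02 and 5.77 at day 2 and 5.30, 3.52, 4.64 and 4.40 at day 7. The day 7 arrays lay below day 0, by a difference of means of -1.06 ± 0.50 (adjusted p = 0.151).

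Sox9 was at 8.29, 7.93 and 8.02 at day 0 in VC- mice, 7.02, 8.15 and 7.76 at day 2 and 8.12, 4.37, 5.84 and 7.26 at day 7. Replicate 1 of day 7 stayed at the level of day 0, and replicate 2, the array with low epithelial markers, was lowest. The day 7 difference was -1.68 ± 0.63 (adjusted p = 0.0815), and -2.25 without VC- day 7 replicate 1 (adjusted p = 0.00846). That was the 1 call among 22 fits without 1 array, and 0 of 11 other settings called it. The other probe sets of Sox9 gave -1.89 and -0.47 for the same difference of means. In VC+ mice Sox9 was at 8.18, 7.64 and 7.78 at day 0, 7.76, 7.45, 7.31, 8.09 and 8.02 at day 2 and 8.02, 8.64, 7.00 and 6.57 at day 7. The arrays of the 3 days overlapped, with differences from day 0 of -0.15 at day 2 and -0.31 at day 7 (adjusted p = 1.00 and 0.895).

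Smoc2, a secreted matrix protein of crypt base cells that fibroblasts also make, had the widest spread of the 9 genes at day 7 in VC- mice. In VC- mice it was at 7.12, 8.14 and 7.52 at day 0, 6.79, 7.59 and 7.82 at day 2 and 7.36, 11.86, 6.15 and 8.06 at day 7. The value of 11.86 was on replicate 2, where the fibroblast markers were 2.43 and the leukocyte markers 2.75 above their means over all arrays. The day 7 difference of 0.77 ± 0.86 (adjusted p = 0.545) turned to -0.40 without that array. In VC+ mice Smoc2 was at 8.61, 7.46 and 7.69 at day 0, 7.02, 7.38, 6.77, 7.88 and 7.57 at day 2 and 7.77, 8.89, 7.26 and 9.31 at day 7, with overlapping arrays and no call.

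Nkd1 encodes an inhibitor of Dishevelled and is a feedback target of Wnt signaling. In VC- mice it was at 5.78, 5.01 and 4.88 at day 0, 5.69, 4.58 and 5.35 at day 2 and 5.38, 6.56, 6.84 and 6.67 at day 7. Of the 4 day 7 arrays, 3 lay above all day 0 arrays. The difference of 1.14 ± 0.37 had an adjusted p of 0.0525. It passed the test with array weights (1.39, adjusted p = 0.00375), after quantile normalization (0.0477), and without VC- day 7 replicate 1 (0.00504), VC- day 0 replicate 1 (0.0487) or VC- day 2 replicate 2 (0.0480). The other probe sets of Nkd1 gave 0.65, 0.034 and -0.037 for the same difference of means. In VC+ mice Nkd1 was at 4.55, 5.10 and 5.37 at day 0, 4.98, 4.71, 5.38, 5.38 and 5.37 at day 2 and 5.38, 4.84, 6.05 and 5.46 at day 7, with differences of 0.16 and 0.43 that did not pass the test (adjusted p = 1.00 and 0.686). The probe set that gave 0.65 in VC- mice gave -0.17 at day 7 in VC+ mice.

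**Figure D3:**
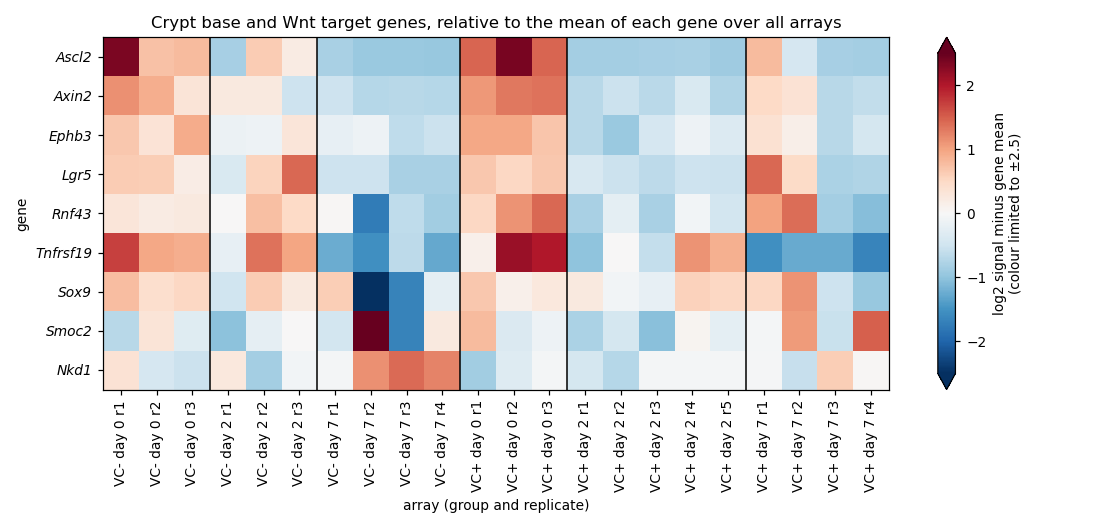
Log2 signal of each of the 9 genes (rows) on each of the 22 arrays (columns, by group and replicate) minus the mean of that gene over all arrays, with colours limited to 2.5 either way. Ascl2, Axin2, Ephb3 and Lgr5 lie below their means (blue) on all 4 VC- day 7 arrays and all 5 VC+ day 2 arrays. On VC+ day 7, Axin2, Ephb3, Lgr5, Rnf43 and Sox9 lie above their means on replicates 1 and 2 and below them on replicates 3 and 4. Ascl2, Tnfrsf19, Smoc2 and Nkd1 do not split in this way.

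The genotypes were compared at each day to ask whether loss of PPAR γ in the epithelium altered these genes. At day 0, 0 of the 9 genes were called between VC+ and VC- mice, against 0.011% of all genes, and the largest difference was 0.77 ± 0.53 for Rnf43 (adjusted p = 0.875). At day 2, 0 of 9 were called, against 0.044% of all genes. Hoxb13 was at 3.07 to 12.42 on the VC+ and at 2.88 to 3.08 on the VC- day 2 arrays, so this comparison was uneven in it. For Lgr5, VC+ minus VC- was -1.06 ± 0.40 (95% interval -1.91 to -0.21, adjusted p = 0.297), with all 5 VC+ arrays below all 3 VC- arrays by a gap of 0.018. Ascl2, near background on all 5 VC+ day 2 arrays, was at least 1.68-fold lower there than in VC- mice, which did not pass the test (adjusted p = 0.394). Rnf43 also had all VC+ arrays below all VC- arrays at day 2, having had all of them above at day 0. Without a test, 4.02% of all genes had all VC+ arrays lower at day 2 and 9.66% had all of them higher at day 0, so that 1 of 9 genes at day 0 is near the share of all genes. At day 7, 0 of 9 were called, against 0% of all genes by limma, where 14.2% had an unadjusted p under 0.05, and the arrays of the genotypes overlapped for all 9 genes. With array weights 4 of the 9 were called at day 7, and without VC- day 7 replicate 1, 2 were. The shares of all genes called in those fits are not given here, so these counts are not read as a result about the 9 genes.

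The difference between the day 2 responses of the genotypes was tested as an interaction, and 0 of 9 genes were called, against 0.022% of all genes. The VC+ response less the VC- response was -1.67 ± 0.72 for Rnf43 (95% interval -3.17 to -0.17, adjusted p = 0.705), -1.32 ± 0.60 for Ascl2, fitted on values near background at day 2 in VC+ mice (-2.57 to -0.066, adjusted p = 0.732), -1.20 ± 0.61 for Lgr5 (-2.48 to 0.070, adjusted p = 0.817) and -1.05 ± 0.40 for Axin2 (-1.90 to -0.21, adjusted p = 0.591). The calls at day 2 in VC+ mice and their absence in VC- mice therefore do not show that the genotypes responded differently. Hoxb13 averaged 8.70 at day 0 and 2.97 at day 2 in VC- mice and 6.13 and 9.31 in VC+ mice, so the day 2 responses were uneven in it as well. At day 7 the interaction called 0 of 9 genes, against 0% of all genes by limma (8.48% at an unadjusted p under 0.05). For Axin2, Ascl2 and Ephb3 it was 0.089, 0.11 and 0.00032, with 95% intervals of -0.74 to 0.92, -1.13 to 1.34 and -0.76 to 0.76.

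The 9 genes moved with other properties of the arrays, whose part in the results was not tested except where a value is given. Hoxb13 was at 7.29 to 9.67 on the VC- day 0 arrays and at 2.88 to 3.08 on the VC- day 2 arrays, so in VC- mice these days cannot be told apart from it. On VC- day 7 it was at 9.62 on replicate 4 and at 2.86 to 3.81 on the other arrays. The VC- comparison of day 7 with day 0 was thus uneven in Hoxb13 too. In VC+ mice Hoxb13 was above 6 on 1 of 3 day 0 arrays and 4 of 5 day 2 arrays. Among those, Axin2 was at 6.65 at day 0 and 4.81 to 5.18 at day 2, and on the arrays with low Hoxb13 it was at 6.88 to 6.92 and 5.04. Ascl2 went from 5.63 to between 3.29 and 3.38 on the arrays with high Hoxb13, and from between 5.63 and 6.55 to 3.33 on the others. Xist was high on 1 VC+ day 0 array and 2 VC+ day 2 arrays, where Axin2 was at 6.92 and at 4.81 to 5.18, and on the VC+ arrays without Xist it was at 6.65 to 6.88 and 4.87 to 5.04. These sets are too small for a test. For Axin2 and Ascl2 every VC+ day 2 array lay below every VC+ day 0 array, so the same order within each set follows from that. No day 7 array had Xist signal. On arrays without it only, 0 of the 9 genes were called at day 2 in VC+ mice, 2 at day 7 in VC- mice and 0 at day 7 in VC+ mice. The shares of all genes called on those arrays are not given here. The fold changes there were close to or above those on all arrays, at -2.75 for Ascl2, -1.83 for Axin2 and -1.65 for Ephb3 at day 2 in VC+ mice, and -2.24, -1.31 and -1.12 at day 7 in VC+ mice. Without the 3 arrays with Prss2 signal, Ephb3 (-0.97, adjusted p = 0.111) and Tnfrsf19 (-2.39, 0.0771) were no longer called at day 7 in VC- mice, nor was Ephb3 in VC+ mice (-0.92, 0.102), with differences close to those on all arrays.

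The levels of cell type markers stand beside these results, and their part in them was not tested. The pan-epithelial markers had a median log2 fold change at day 2 of 0.071 in VC- and 0.092 in VC+ mice, with 0 of 8 called, and at day 7 of -0.82 in VC- and 0.0041 in VC+ mice, with 0 called. On VC- day 7 the mean of these markers was -3.28 on replicate 2, relative to their means over all arrays, and 0.10 to 0.30 on the other 3 arrays, against -0.09 to 0.24 on VC- day 0. In VC+ mice this mean was 0.11 to 0.23 on the day 0 arrays and 0.11 to 0.46 on the day 2 arrays. All 7 smooth muscle markers had higher means at day 2 in VC+ mice, with a median of 0.92 and 0 called, and all 6 fibroblast markers did, with a median of 1.22 and 0 called. Relative to their means over all arrays, the fibroblast markers averaged -1.02 to -0.51 on the VC+ day 0 arrays and -0.43 to 0.78 on the VC+ day 2 arrays, and the proliferation markers 0.55 to 0.66 and -1.68 to -0.34. Neither pair of ranges overlapped. At day 7 the leukocyte markers had medians of 1.83 in VC- and 1.13 in VC+ mice, with 4 and 2 of 7 called higher, S100a8 by 7.97 and 9.16 among them. Of all genes tested, 5.53% and 1.32% were called higher. The 11 proliferation markers tested all had negative differences at day 2, with medians of -0.73 in VC- and -1.56 in VC+ mice and 0 called. At day 7 their median was -1.83 in VC- mice, with Ccnb2, Bub1 and Pcna called lower, and 0.38 in VC+ mice, with 0 called. Of all genes tested, 5.06% were called lower in VC- mice and 0.429% in VC+ mice. From day 2 to day 7 in VC+ mice 7 of 11 proliferation markers rose, Top2a by 2.15 ± 0.56 (adjusted p = 0.0266) and Mki67 by 1.92 ± 0.56 (adjusted p = 0.0420). Between these days 4.76% of all genes tested were called higher. On the VC+ day 7 arrays, replicates 1 to 4, the proliferation markers averaged 1.66, 1.12, -0.37 and 1.28 relative to their means over all arrays, and the 9 crypt base and Wnt target genes 0.33, 0.26, -0.62 and -0.53. Replicate 4 was thus high in one list and low in the other.

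The other genes of the pathway came from lists of ligands, receptors, inhibitors, cytoplasmic and nuclear components and further targets. None of them was called at day 2 in either genotype or at day 7 in VC+ mice, and the calls below are of day 7 in VC- mice, where 10.6% of all genes were called, so that 1 call in a list of 8 or 9 is near that share. Among the ligands and R-spondins, 2 of 19 Wnt genes and 1 of 4 R-spondins passed the filter on variance. Rspo3, whose product binds LGR receptors, rose by 2.71 ± 0.58 (adjusted p = 0.0112), from between 5.92 and 6.42 to between 7.75 and 10.09. In VC+ mice its difference was 2.29 ± 0.58 (adjusted p = 0.0505). Wnt5a, a ligand that mainly acts without β-catenin, rose by 2.35 ± 0.55 (adjusted p = 0.0171). Of the 13 receptors tested, Fzd1 rose by 1.58 ± 0.37 (adjusted p = 0.0177) and Ryk by 0.72 ± 0.21 (adjusted p = 0.0374). None of the 6 secreted inhibitors tested was called, though all 6 differences were positive, with a median of 1.13. Relative to their means over all arrays, the inhibitors averaged 1.67 on VC- day 7 replicate 2 and -0.19 to 0.58 on the other 3 arrays. The fibroblast markers, whose part in these rises was not tested, averaged -0.48, 2.43, 0.60 and 1.17 on VC- day 7 replicates 1 to 4 and -0.68 to -0.19 on VC- day 0. On replicate 1 Rspo3 was at 8.34 and Wnt5a at 6.97, its lowest value on VC- day 7, both above all VC- day 0 arrays. Of the 8 cytoplasmic components tested Csnk1a1, a kinase of the destruction complex, rose by 1.12 ± 0.35 (adjusted p = 0.0499), and none of the 5 nuclear components tested was called. Of the 9 further targets, Znrf3, the partner of Rnf43, fell by 1.02 ± 0.32 (adjusted p = 0.0490), and 7 of 9 differences were negative, with a median of -0.50. Of the 13 other markers of the crypt base and progenitors tested, Hopx fell by 2.36 ± 0.47 (adjusted p = 0.00740) and Cdk6 by 1.20 ± 0.33 (adjusted p = 0.0347), with a median of -0.36. Among the 9 other Eph receptors and ephrins tested, relatives and ligands of Ephb3, none was called in either genotype at day 2 or day 7, and their medians lay between -0.39 and 0.30.

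**Figure D4:**
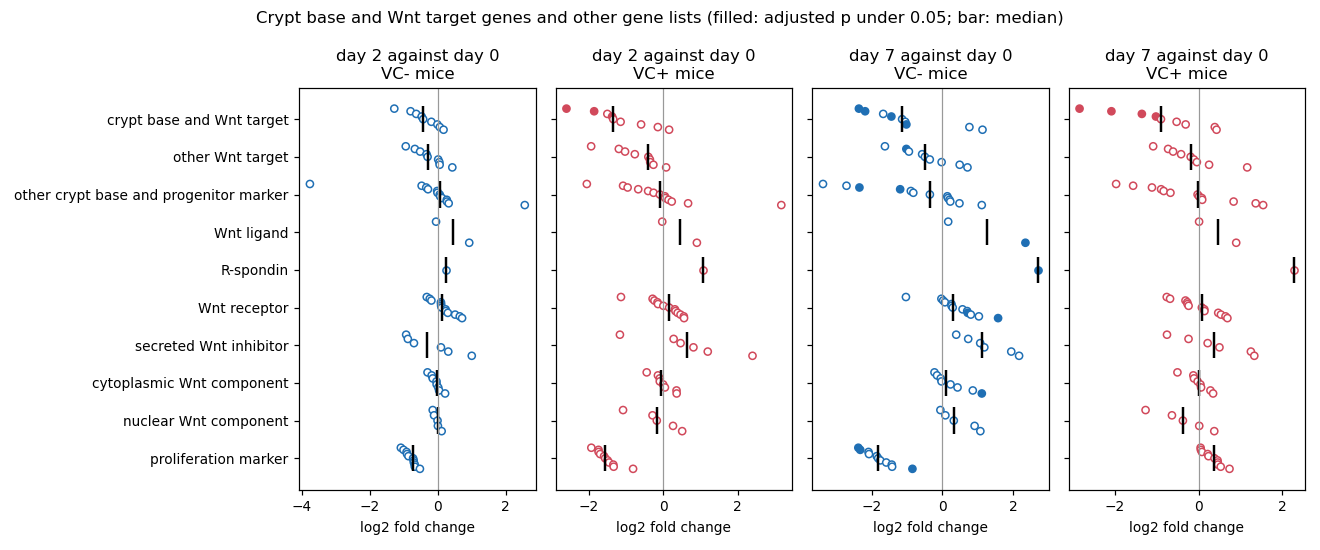
Log2 fold change against day 0 of each tested gene, by list (vertical axis) and by day and genotype (panels, VC- in blue, VC+ in red, filled where the adjusted p was under 0.05), with a black bar at the median of each list. The medians of the crypt base and Wnt target genes were -0.43, -1.34, -1.15 and -0.90 from left to right, and those of the proliferation markers were -0.73, -1.56, -1.83 and 0.38.

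The 9 genes did not all vary alike over the 22 arrays. Against the mean of the other 8, each centred on its own mean, Pearson's r was 0.89 for Ephb3, 0.88 for Ascl2, 0.87 for Axin2, 0.79 for Lgr5, 0.75 for Rnf43 and 0.56 for Tnfrsf19. It was 0.37 for Sox9, -0.19 for Smoc2 and -0.55 for Nkd1. The closest pair was Ascl2 and Axin2, with r of 0.91, followed by Ascl2 and Ephb3 with 0.87. These values describe arrays that share groups and, for Ascl2, Ephb3 and Lgr5, values near background, and they carry no test. Of all genes that are none of the 9, the 6 with the highest r with the mean of the 9 were Hopx (0.95), Cdk6 (0.87), Piwil4 (0.86), Stmn1 (0.83), A4gnt (0.82) and Cdo1 (0.82). Hopx, a homeodomain protein found in quiescent and reserve stem cells, was at 9.65 to 9.70 at day 0 in VC+ mice, 6.89 to 8.35 at day 2 and 7.14 to 9.02 at day 7. In VC- mice its means at these days were 9.25, 8.90 and 6.89. Its day 2 difference in VC+ mice was -2.06 ± 0.45 (adjusted p = 0.216). All its day 7 arrays lay below its day 0 arrays in both genotypes, as for 12.3% of all genes tested in VC- and 8.61% in VC+ mice. Hopx was picked for its likeness to the 9 genes on these arrays, so a shared pattern follows from the choice.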

How the data were processed

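Per the methods, the authors homogenized colonic tissue for RNA, hybridized the RNA to Affymetrix Mouse 430 2.0 arrays, read the scans with affy in R 2.10.1 and processed them by GC-RMA. The deposited values are therefore log2 signals, corrected for background and normalized over the arrays. GC-RMA pulls dim probe sets to a common floor, so differences of genes near the array median are understated. Of 45101 probe sets, 34958 carried 1 gene symbol, and 1 probe set was kept per gene, the one with the widest interquartile range (18194 genes). As in the study's methods a variance filter was applied, which kept the upper 50% (9097 genes), and limma was used (version 3.58.1 in R 4.3.3), with 6 group means, empirical Bayes moderation, two-sided p-values and Benjamini-Hochberg adjustment within each of 11 comparisons at 0.05. Precision is limited by the small number of arrays. The fit was tested on simulated data. The genes, the lists and the rule for named genes (all 10 genes, up to 3 called genes of each other list and the 6 genes most alike in pattern) were chosen with earlier results of these data known. Alternatives were other filters, array weights, moderation with a trend, a replicate block, quantile normalization, other choices of probe set, fits without single arrays or sets of arrays, and Hoxb13 as a covariate. Values within arrays of high or low Hoxb13 and Xist were added after the data were seen. Sequences are from RefSeq, GRCm38.p6.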

Additional observations from a re-analysis of the deposited data

Results flagged for a closer look

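In VC- mice at day 7, replicate 1 lay apart from the other 3 arrays for Ascl2 and for Axin2. Ascl2 was at 3.37 there, with a gap to the nearest array of 0.898 of the whole range of the group, and Axin2 was at 5.06, with a gap of 0.845 of the range. All 4 arrays of Ascl2 were near background, and those of Axin2, at 4.85 to 5.06, were not. In all, 27 groups of 4 or 5 arrays were examined for the 9 genes, and about 1 in 20 such groups is marked by chance.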

How the results depend on the processing

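Of the calls of the 9 genes, those of Ascl2, Axin2 and Tnfrsf19 at day 7 in VC- mice held without each of the 22 arrays in turn. In fits restricted to the groups under comparison, the counts called were 0 at day 7 in VC- and in VC+ mice, and 0 between day 2 and day 7 in VC- and VC+ mice. With array weights they were 6 at day 2 in VC+ mice, 5 between day 2 and day 7 in VC+ mice, where Axin2, Lgr5, Ephb3 and Rnf43 were higher at day 7, and 4 between the genotypes at day 7. The 1 gene called between day 2 and day 7 in VC+ mice was lost (0 called) with no variance filter, with a filter on dim probe sets in its place and with trended, robust moderation. When the arrays with Prss2 signal were left out, the counts were 2 at day 7 in VC- mice and 0 between day 2 and day 7 in VC- and VC+ mice. With Hoxb13 as a covariate, 0 were called between day 2 and day 7 in VC- mice. On arrays without Xist signal the counts were 0 at day 2 in VC+ mice, 2 at day 7 in VC- mice, 0 at day 7 in VC+ mice, and 0 between day 2 and day 7 in VC- and VC+ mice. In fits that left out 1 array, the counts ranged from 0 to 3 at day 2 in VC+ mice, 3 to 6 at day 7 in VC- mice, 0 to 4 at day 7 in VC+ mice, 0 to 4 and 0 to 1 between day 2 and day 7 in VC- and VC+ mice, and 0 to 2 between the genotypes at day 7. The shares of all genes called in the fits of this section are not given. These counts therefore do not show whether the 9 genes moved apart from all genes. Apart from the fits with fewer arrays or genes, the cause was not tested.

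The labels do not say whether the replicate numbers pair the arrays, and the values do not settle it. Deviations were correlated above 0.1 in 18 of 48 pairs with the same number in different groups. Among pairs with other numbers in different groups, 36 of 152 were. The mean correlations were 0.084 and -0.027, and the lowest -0.51 and -0.53. With the replicate number as a block, the counts were 0 at day 2 in VC+ mice, 2 at day 7 in VC+ mice, and 0 between day 2 and day 7 in VC- and VC+ mice.

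The sign of small differences, none of them called, turned in some fits. With array weights the day 2 difference of Nkd1 in VC- mice was 0.067, that of Sox9 in VC+ mice was 0.015, and the day 7 differences were -0.13 for Smoc2 in VC- mice and 0.036 for Lgr5 and 0.26 for Sox9 in VC+ mice. Without the arrays with Prss2 signal Lgr5 was at -0.091 at day 2 in VC- mice, Smoc2 at -0.44 at day 7 in VC- mice and Sox9 at 0.017 at day 7 in VC+ mice. With Hoxb13 as a covariate the day 2 differences in VC- mice were -0.079 for Lgr5, 0.084 for Smoc2 and -0.23 for Rnf43, and the difference of the day 2 responses was -0.23 for Sox9. On arrays without Xist signal they were -0.79 for Lgr5, -0.27 for Rnf43 and 0.36 for Nkd1, and -0.16 for the difference of the day 2 responses of Nkd1. In fits without 1 array, the ranges were -0.26 to 0.011 for Sox9 and -0.071 to 0.34 for Nkd1 at day 2 in VC+ mice, -0.25 to 0.30 for Nkd1, -0.43 to 0.11 for Smoc2, -0.39 to 0.51 for Lgr5 and -0.00073 to 0.37 for Rnf43 at day 2 in VC- mice, -0.67 to 0.017 for Sox9 at day 7 in VC+ mice, -0.40 to 1.50 for Smoc2 at day 7 in VC- mice, and -0.14 to 0.41 for Nkd1 and -0.025 to 0.54 for Sox9 in the difference of the day 2 responses.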
